A study of Rattus norvegicus with 4 samples.

Results

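The collagen and laminin chains are the genes whose symbols follow the naming of collagen chains (Col, a type number, a, a chain number) or of laminin α, β and γ chains (Lama, Lamb, Lamc and a number). Among the 22293 protein-coding genes of the deposited count table, 53 genes met this rule under 52 symbols, because Col23a1 is listed under 2 gene identifiers. They were separated into 11 fibrillar collagens, 32 other collagens and 10 laminins, and 51 of the 53 passed the filter on low counts. They were measured by RNA sequencing of polyadenylated RNA from whole lumbar dorsal root ganglia (DRGs), the ganglia that hold the cell bodies of sensory neurons, in 4 libraries. The series was designed to examine the DRG after early-life cisplatin, a platinum chemotherapy drug, in the setting of chemotherapy-induced sensory neuropathy.

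All animals were wild-type neonatal Wistar rats. The 2 vehicle libraries came from rats given phosphate-buffered saline, and the 2 cisplatin libraries from rats given intraperitoneal cisplatin at 0.3 mg/kg on postnatal days 14 and 16. The labels place the collection of the DRGs 16 days after treatment, whereas the study's methods place it at P23. Several lumbar DRGs were pooled for each library. The study used rats of both sexes and does not say which went into which library. P-values measure only the spread between these samples.

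Collagen chains wind in threes into a triple helix inside the endoplasmic reticulum. Fibrillar collagens are then trimmed and packed into the fibres of connective tissue, while collagen IV forms the sheet-like scaffold of basement membranes. Laminins are cross-shaped heterotrimers of one α, one β and one γ chain that start basement membrane assembly at the cell surface. In the DRG and nerve, collagens are made chiefly by fibroblasts, perineurial cells, Schwann cells and vessel-associated cells, and the basement membrane around each axon-Schwann cell unit is built on laminin.

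Library totals ranged from 21384801 to 25618417 counts. The most abundant chains therefore rested on many counts, such as 101263 of Col1a1 in vehicle library 1. Intervals from counts would cover counting error at most and would leave out the spread between animals and libraries. The reads carried no molecular identifiers. The tissue label held: all 14 sensory neuron markers were measured, with Nefl, a neurofilament, at 2691 FPKM in vehicle library 1. FPKM values are deposited counts scaled for gene length and by 1 constant per library, a level per length. The libraries stood apart in 3 respects. Vehicle library 2 had 0 counts of all 4 Y-linked genes, whose summed level was 141.6 to 166.9 CPM (TMM-normalised counts-per-million) in the other libraries. Sex was therefore not balanced between the groups. This library was also the highest of the 4 in 34 of the 51 chains tested, and the part of sex in these levels was not tested. Vehicle library 1 held 629.2 CPM of skeletal muscle markers against 18.9 to 63.0 CPM elsewhere. Cisplatin library 1 had the lowest value in 42 of the 51 chains tested. Medians over the chains and their classes are given with and without single libraries, and values of single genes in a few cases only.

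Across the chains, levels were lower after cisplatin in most genes, by a moderate amount and with a wide spread between libraries of one group. The fitted log2 fold change was below 0 in 48 of 51 chains, against 50.9% of all 14719 genes tested. Its median over the chains was -0.68 on the log2 scale, with a range of -1.63 to 0.83, whereas the median over all genes was -0.01. No chain was called by edgeR's quasi-likelihood test at an adjusted p under 0.05 with a fold change of at least 1.5, a rule that called 1 gene, or 0.00679%, of all those tested. At an unadjusted p under 0.05 with the same fold, 9 chains were lower, against 5.32% of all genes, and 0 chains were higher, against 2.8% of all genes. DESeq2 called 1 chain at an adjusted p under 0.05, namely Col1a2, against 0.413% of genes called lower by that tool.

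The vehicle and cisplatin libraries did not overlap in 24 of the 51 chains, all with both cisplatin values lower; over all genes, 21.2% had this pattern. The opposite pattern was seen in 0 chains, against 20.6% of all genes. With 2 libraries against 2, an exact permutation test of a single chain cannot give a two-sided p below 0.333.

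The share of protein-coding counts taken by the chains was 1.73% and 2.03% in the vehicle libraries and 0.767% and 1.39% in the cisplatin libraries. Both cisplatin libraries therefore lay below both vehicle libraries, but the gap between the 2 cisplatin libraries exceeded the gap from cisplatin library 2 to vehicle library 1. Relative to the vehicle mean of each gene, the median chain stood at -0.20, 0.20, -1.17 and -0.27 on the log2 CPM scale in vehicle libraries 1 and 2 and cisplatin libraries 1 and 2. In bulk RNA, fewer cells of a type and less RNA per cell cannot be told apart.

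**Figure D1:**
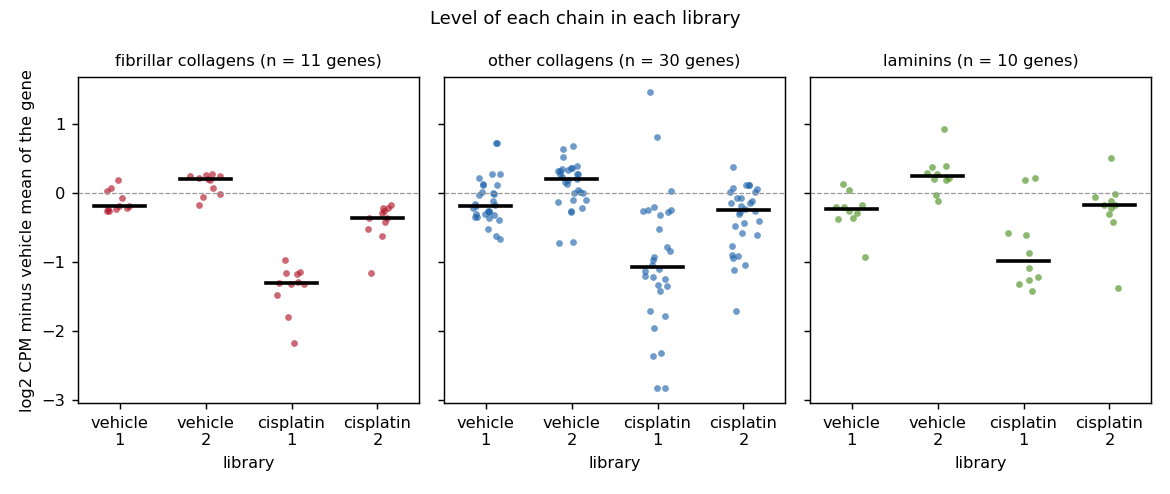
Each point is the log2 CPM of 1 chain in 1 library minus that gene's mean over the 2 vehicle libraries, with 1 panel per class, and the black bar is the median. Cisplatin library 1 has the lowest median in each class (-1.30 in fibrillar collagens, -1.08 in other collagens and -0.98 in laminins), and cisplatin library 2 lies much closer to the vehicle libraries (-0.37, -0.25 and -0.18).

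The size of the shift depended on single libraries. Without cisplatin library 1, the median log2 fold change over the chains was -0.30 and 44 of 51 chains were below 0. Without cisplatin library 2, it was -1.16 and 47 of 52 were below 0. It was -0.39 without vehicle library 2 and -0.81 without vehicle library 1. The median over all genes stayed between -0.03 and 0.02 in these fits.

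The markers of several cell types also differed between libraries. All 14 sensory neuron markers had a log2 fold change above 0, with a median of 0.40, and their summed level was 33360 and 25420 CPM in the vehicle libraries and 40790 and 29150 CPM in the cisplatin libraries. All 10 Schwann cell markers were below 0, with a median of -0.36, and their sum was 63560 and 160200 CPM against 49890 and 140700 CPM. The 9 fibroblast and perineurium markers had a median of 0.03, with a sum of 932.0 and 1475 CPM against 892.9 and 1476 CPM. Dcn was the largest part of this sum, at 470.1 and 841.1 CPM against 494.2 and 873.0 CPM. Of the 9, 4 were below 0 and 5 above 0. Pdgfra was the lowest at -0.71, with 67.8 and 90.2 CPM against 37.0 and 59.7 CPM, without overlap. Among 9 pericyte and smooth muscle markers, 8 were below 0, and their sum was 316.3 and 413.0 CPM against 234.7 and 340.9 CPM. Endothelial markers summed to 146.1 and 174.8 CPM against 121.4 and 163.1 CPM, with Cldn5, a tight junction gene of vessels, at 0 in all 4 libraries. The 9 meninges markers summed to 126.1 and 114.8 CPM against 367.5 and 401.8 CPM. Most of that sum and of its difference was Ptgds, a prostaglandin synthase, at 82.9 and 74.2 CPM against 318.2 and 340.7 CPM. All 8 meninges markers tested had a log2 fold change above 0, with a median of 0.50, and Alx4, a transcription factor, was too low to test, with 2, 5, 0 and 3 counts (vehicle 1, vehicle 2, cisplatin 1, cisplatin 2). In the Schwann cell, fibroblast, pericyte and endothelial sums, the libraries overlapped between groups and cisplatin library 1 was the lowest of the 4, as it was in most chains. The libraries also overlapped in the sensory neuron sum, in which cisplatin library 1 was the highest of the 4. Of the 14 neuron markers, 10 overlapped between groups and 4 were higher without overlap, against 20.6% of all genes. The part of these cell types in the lower chain levels was not tested.

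The 11 fibrillar collagens, the builders of connective tissue fibres, all had a log2 fold change below 0, with a median of -0.74 and a range of -1.59 to -0.55. At an unadjusted p under 0.05 with a 1.5-fold change, 3 were lower (Col1a2, Col11a2 and Col5a1), against 5.32% of all genes, and in 8 of 11 the groups did not overlap with cisplatin lower, against 21.2% of all genes. Cisplatin library 1 was the lowest of the 4 libraries in all 11. Summed over the class, the level was 2046 and 2717 FPKM in the vehicle libraries and 911.1 and 1866 FPKM in the cisplatin libraries. In each library this was the larger part of the summed FPKM of all chains, which was 2915, 3958, 1375 and 2757 (vehicle 1, vehicle 2, cisplatin 1, cisplatin 2). Without cisplatin library 1 the class median was -0.37, and without cisplatin library 2 it was -1.32.

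Col1a2 showed the clearest difference among the chains. It encodes the second chain of collagen I, the main collagen of skin, tendon, bone and nerve sheaths, and lies on the plus strand of chromosome 4 at 31534225 to 31569151 (Rnor_6.0). Its level was 856.1 and 945.7 CPM in the vehicle libraries and 198.6 and 400.6 CPM in the cisplatin libraries (900.9 ± 63.4 against 299.6 ± 143, SD, n = 2 each). Both cisplatin libraries lay far below both vehicle libraries, and the cisplatin mean was 33.3% of the vehicle level in the fit. The log2 fold change was -1.59 (SE 0.391) with an edgeR adjusted p of 0.509. DESeq2 gave -1.58 with an adjusted p of 0.00763, so Col1a2 fell by that test and was not called by edgeR.

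The bases upstream of Col1a2 are shown because it was the one chain called by DESeq2. They are the first 100 of the 250 bases before the RefSeq start of the gene, on the plus strand of chr4:33518307-33518406 in GRCr8, the build of the RefSeq promoter table. Capitals mark the reverse complement of CCAAT and the TATA box letters TATAAA.
Col1a2: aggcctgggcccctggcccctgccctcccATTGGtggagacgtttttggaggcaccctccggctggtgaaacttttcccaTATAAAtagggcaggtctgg
Promoters were found for 41 of the 52 chain symbols. TATAAA was present on either strand in 5 of these 41 (12.2%) and in 12.9% of all 33469 promoters of the table. CCAAT was present in 13 of 41 (31.7%) against 34% of all. GGGCGG, the GC box, was present in 23 of 41 (56.1%) against 30.5% of all. The chains were counted by symbol and the whole table by promoter. A symbol with several promoters would have more chances of a match. The shares are therefore not like for like, and whether the chains differ from the table in any motif was not tested. The 3 motifs were searched in both directions over the same 250 bases. A match describes letters only, and no binding was measured.

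Col1a1, which encodes the partner chain of collagen I, was one of the most abundant chains per length. Its level was 680.4 and 884.0 FPKM in the vehicle libraries and 310.0 and 633.3 FPKM in the cisplatin libraries. The groups did not overlap, but cisplatin library 2 lay only just under vehicle library 1. The log2 fold change was -0.74 (SE 0.578), with an adjusted p of 0.686 in edgeR. The ratio of Col1a1 to Col1a2 within a library, on the FPKM scale, was 3.63 and 4.32 in the vehicle libraries and 7.14 and 7.22 in the cisplatin libraries (3.97 ± 0.484 against 7.18 ± 0.0565, SD, n = 2 each). The 2 cisplatin libraries were close to each other and above both vehicle libraries, although they differed widely in the level of either gene. Collagen I is usually a trimer of a pair of Col1a1 chains and a single Col1a2 chain.

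Col3a1, which encodes the homotrimeric collagen III that mixes with collagen I in distensible tissues, had the highest mean level per length (FPKM) of all chains. It stood at 681.1 and 972.6 FPKM in the vehicle libraries and 332.8 and 703.0 FPKM in the cisplatin libraries. Cisplatin library 2 lay above vehicle library 1, so the groups overlapped, and the log2 fold change of -0.68 was little larger than its SE of 0.572. Col2a1, the collagen of cartilage and of the vitreous, had 190.6 and 245.4 FPKM against 78.0 and 168.4 FPKM, with no overlap and a log2 fold change of -0.83 (SE 0.432, edgeR adjusted p 0.564). Of 7 cartilage markers, Hapln1, a link protein of hyaluronan, had 940, 502, 1013 and 715 counts and Comp, an oligomeric matrix protein, 420, 254, 399 and 326 counts (vehicle 1, vehicle 2, cisplatin 1, cisplatin 2), while Matn1, a cartilage matrilin, had 0 counts in 3 libraries. Acan and Sox9, also on this list, had 75, 13, 35 and 18 counts and 57, 125, 58 and 97 counts in the same order. Their log2 fold changes were -0.79 (SE 0.759) and -0.42 (SE 0.580). Of the 5 cartilage markers tested, 3 were below 0 and 2 above 0. The 7 markers summed to 60.3 and 46.2 CPM in the vehicle libraries and 60.7 and 49.98 CPM in the cisplatin libraries. The part of cartilage RNA in the Col2a1 values was not tested.

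The 3 collagen V genes encode the collagen that sets the diameter of collagen I fibrils, and all had values below 0 on the log2 fold change scale. Col5a1 was at 306.0 and 414.4 CPM in the vehicle libraries and 102.3 and 231.3 CPM in the cisplatin libraries. Both cisplatin values lay under both vehicle values, and the log2 fold change was -1.11 (SE 0.421, edgeR adjusted p 0.516). Col5a2 was at 230.1 and 319.1 CPM against 109.8 and 232.1 CPM and overlapped, with a log2 fold change of -0.68. The ratio of Col5a1 to Col5a2, on the FPKM scale, was 0.916 and 0.895 in the vehicle libraries and 0.642 and 0.686 in the cisplatin libraries. As with Col1a1 and Col1a2, the ratios of the 2 groups did not overlap. The libraries of each group lay close together, whereas for Col1a1 to Col1a2 only the cisplatin libraries did. Col5a3, the third chain of collagen V, was the most abundant of the 3 per length, at 185.2 and 254.1 FPKM against 96.3 and 169.3 FPKM, with no overlap and a log2 fold change of -0.73 (SE 0.400).

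The collagen XI genes, whose product nucleates fibrils in cartilage and other tissues, were less abundant. Col11a2 was at 77.5 and 70.4 CPM in the vehicle libraries and 32.8 and 51.1 CPM in the cisplatin libraries, with no overlap. Its log2 fold change was -0.82 (SE 0.258, edgeR adjusted p 0.509), and its SE was the smallest among the fibrillar collagens. Col11a1 was at 46.7 and 66.9 CPM against 28.4 and 49.3 CPM and overlapped, with a log2 fold change of -0.55. Col24a1, a minor fibrillar collagen, was at 8.91 and 8.69 CPM against 3.50 and 6.55 CPM, and Col27a1, a fibrillar collagen of the growth plate, at 25.1 and 19.6 CPM against 10.04 and 18.5 CPM. Neither overlapped, and their log2 fold changes were -0.81 and -0.65.

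**Figure D2:**
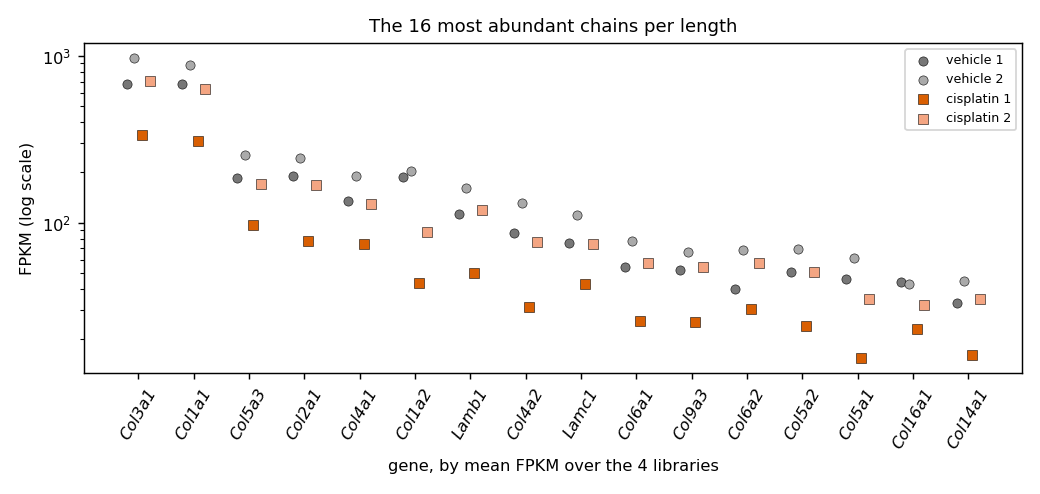
The plot gives the level of the 16 most abundant chains per length in FPKM, on a log axis, with circles for vehicle and squares for cisplatin libraries. Col3a1 and Col1a1 lead, and cisplatin library 1 (dark squares) is the lowest of the 4 values in each of these chains.

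The 32 other collagens comprised network, beaded filament, fibril-associated, transmembrane and smaller types. Of the 30 tested, 28 had a log2 fold change below 0, with a median of -0.60, and 13 had groups that did not overlap, against 21.2% of all genes. At an unadjusted p under 0.05 with a 1.5-fold change, 6 were lower, against 5.32% of all genes: Col6a6, Col7a1, Col15a1, Col16a1, Col22a1 and 1 of the 2 Col23a1 genes. Cisplatin library 1 was the lowest of the 4 libraries in 24 of the 30. The level summed over the class was 588.0 and 835.6 FPKM in the vehicle libraries and 315.2 and 598.6 FPKM in the cisplatin libraries. Cisplatin library 2 therefore lay above vehicle library 1 in this sum. Col17a1, which encodes a hemidesmosome collagen of epithelia, had 9, 6, 6 and 4 counts and was not tested, like Col19a1, a fibril-associated collagen, with 23, 1, 9 and 7 counts (vehicle 1, vehicle 2, cisplatin 1, cisplatin 2). Without cisplatin library 1 the class median was -0.32, and without cisplatin library 2 it was -1.10.

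Col4a1 and Col4a2 encode the chains of the most widespread collagen IV network of basement membranes, and lie on opposite strands of chromosome 16, at 83522162 to 83632153 and at 83387364 to 83438561 (Rnor_6.0). Col4a1 was at 898.4 and 1295 CPM in the vehicle libraries and 503.1 and 866.4 CPM in the cisplatin libraries. Col4a2 was at 436.7 and 669.7 CPM against 157.2 and 387.0 CPM. In both genes the groups did not overlap, with cisplatin library 2 just under vehicle library 1. The log2 fold changes were -0.68 for Col4a1 (SE 0.387, edgeR adjusted p 0.591) and -1.02 for Col4a2 (SE 0.477, edgeR adjusted p 0.538). The ratio of Col4a1 to Col4a2, on the FPKM scale, was 1.54 and 1.45 in the vehicle libraries and 2.40 and 1.68 in the cisplatin libraries, with no overlap. Collagen IV of this kind is a trimer of a pair of Col4a1 chains and a single Col4a2 chain.

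The sequence between the RefSeq starts of these genes is shown because both are read outwards from it. In GRCr8 the starts are separated by 76 bases at chr16:84885521-84885596, given on the plus strand, in the direction of Col4a1. Capitals mark the reverse complement of the GC box letters GGGCGG, the single match in this stretch.
Col4a2-Col4a1: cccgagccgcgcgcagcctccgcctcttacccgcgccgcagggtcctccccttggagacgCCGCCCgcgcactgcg
In the deposited Rnor_6.0 coordinates the ends of these 2 genes that face each other are 83601 bases apart, so the annotations differ in where the genes start.

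The other collagen IV genes were rare in the DRG. Col4a4 was at 15.1 and 19.8 CPM in the vehicle libraries and 14.5 and 14.7 CPM in the cisplatin libraries, with no overlap but a log2 fold change of only -0.26 (SE 0.235). Col4a5, a chain of the kidney and other specialised basement membranes, was at 12.5 and 14.7 CPM against 11.2 and 14.1 CPM, which overlapped, with a log2 fold change of -0.10 (SE 0.246). Col4a6 had 14, 11, 2 and 7 counts (vehicle 1, vehicle 2, cisplatin 1, cisplatin 2), too few to place its fold change of -1.57 (SE 0.784) with any precision. Over the 5 collagen IV genes, 4 had groups that did not overlap, against 21.2% of all genes, and the median log2 fold change was -0.68.

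Collagen VI forms beaded filaments between cells and fibres. Its common chains were Col6a1, at 170.9 and 247.9 CPM in the vehicle libraries and 80.7 and 180.8 CPM in the cisplatin libraries, and Col6a2, at 151.6 and 261.1 CPM against 114.7 and 215.4 CPM. Both overlapped between groups, and their log2 fold changes were -0.68 (SE 0.419) and -0.32 (SE 0.399). That of Col6a2 turned to 0.13 without vehicle library 2 and to 0.08 without cisplatin library 1. The ratio of Col6a1 to Col6a2, on the FPKM scale, was 1.35 and 1.14 against 0.843 and 1.01, with no overlap. Among the longer chains that can replace the third one, Col6a6 was at 17.8 and 28.9 CPM against 9.68 and 13.4 CPM, without overlap, and had a log2 fold change of -1.02 (SE 0.322, edgeR adjusted p 0.509). Its neighbours on chromosome 8 had positive values: Col6a5 was at 10.6 and 3.91 CPM against 11.3 and 4.85 CPM, with a log2 fold change of 0.15 (SE 0.598), and Col6a4 had 7, 9, 25 and 7 counts, with a log2 fold change of 0.83 (SE 0.785). In both of these the libraries of one group differed more than the groups did.

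**Figure D3:**
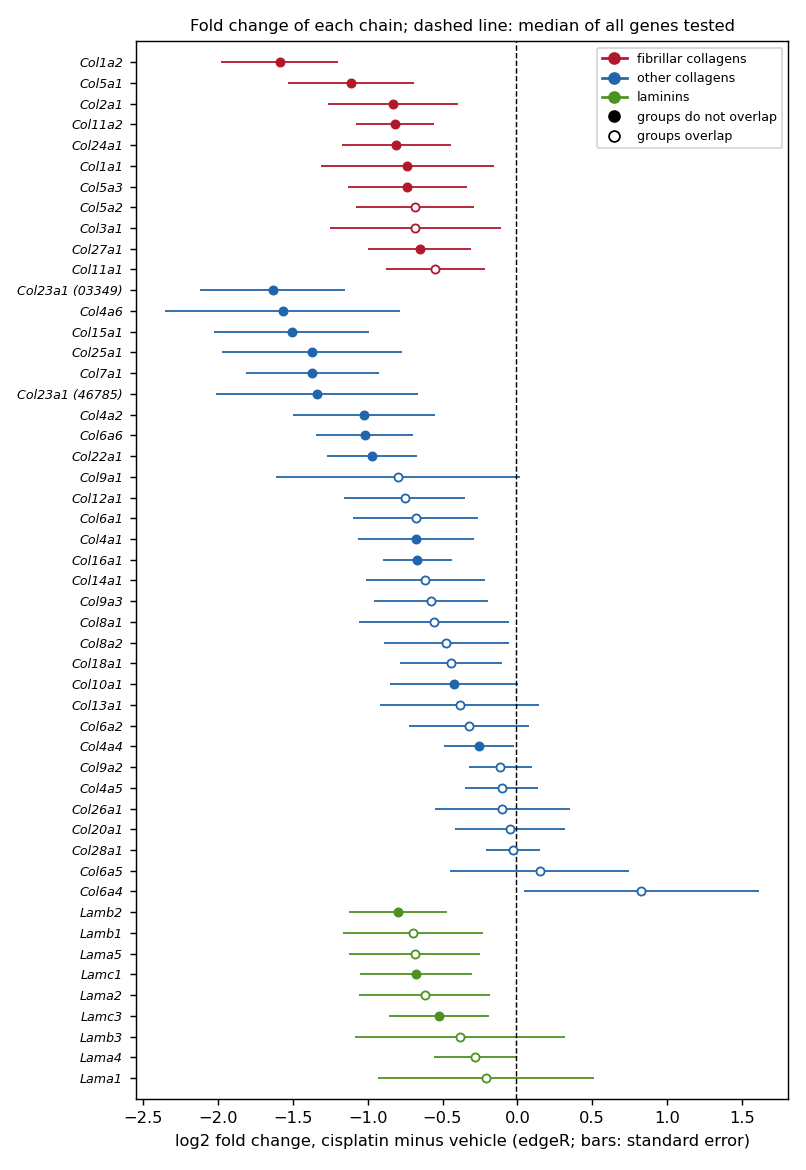
Points are the log2 fold changes of the chains tested, 1 of which is not shown (cisplatin minus vehicle, edgeR), bars are standard errors, and filled points mark chains whose groups did not overlap. The dashed line is the median of all 14719 genes tested (-0.01), and nearly all chains lie below 0.

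The multiplexins, collagens of basement membrane zones whose ends release endostatin-like fragments, were unequal. Col15a1 (chromosome 5, 64476317 to 64542645, Rnor_6.0), which is found under vessels, muscle and nerve, was at 41.6 and 99.8 CPM in the vehicle libraries and 16.5 and 33.3 CPM in the cisplatin libraries. Every cisplatin value was below every vehicle value, although the vehicle libraries differed widely from each other. The log2 fold change was -1.51 (SE 0.518), with an adjusted p of 0.509 in edgeR and of 0.124 in DESeq2. Col18a1, the source of endostatin, was at 23.9 and 36.5 FPKM against 16.5 and 28.1 FPKM and overlapped, with a log2 fold change of -0.44 (SE 0.341).

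Fibril-associated collagens sit on the surface of fibrils. All 8 that were tested had a log2 fold change below 0, with a median of -0.64, and 2 had groups that did not overlap, a share near the 21.2% of all genes. Col16a1, which joins fibrils to cells, was one of them, at 235.8 and 232.3 CPM in the vehicle libraries and 122.8 and 171.7 CPM in the cisplatin libraries. The vehicle libraries were nearly equal and both cisplatin libraries were lower, with a log2 fold change of -0.67 (SE 0.231, edgeR adjusted p 0.509). Col22a1, a collagen of tissue junctions such as that of muscle and tendon, was the other, at 10.95 and 7.47 CPM against 4.61 and 4.80 CPM, with a log2 fold change of -0.97 (SE 0.302, edgeR adjusted p 0.509). Vehicle library 1, which held the most skeletal muscle marker RNA, also had the highest Col22a1 value, and the part of muscle RNA in this difference was not tested. Col12a1 and Col14a1, which decorate collagen I fibrils, overlapped at 11.8 and 18.2 against 5.80 and 12.0 FPKM and at 33.0 and 44.7 against 16.2 and 34.9 FPKM, with log2 fold changes of -0.75 and -0.61.

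The collagen IX genes, partners of collagen II in cartilage, were split. Col9a1 was at 70.1 and 178.0 CPM in the vehicle libraries and 22.2 and 120.3 CPM in the cisplatin libraries. In each group library 2 was the higher, the groups overlapped, and the log2 fold change of -0.80 had an SE of 0.816. It turned to 0.03 without vehicle library 2. Col9a3 had 51.9 and 66.3 FPKM against 25.4 and 54.2 FPKM and a log2 fold change of -0.58, while Col9a2 had 12.2 and 12.3 FPKM against 9.80 and 13.0 FPKM and a log2 fold change of -0.11. Col20a1, the least abundant fibril-associated collagen tested, had 47, 46, 46 and 53 counts and a log2 fold change of -0.05.

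The transmembrane collagens, which span the plasma membrane and can be shed, had the lowest median of any collagen type, -1.36 over 4 genes, at low levels. The 2 Col23a1 genes were listed at separate places on chromosome 10 under 1 symbol. ENSRNOG00000003349 was at 6.87 and 5.08 CPM in the vehicle libraries and 1.14 and 2.72 CPM in the cisplatin libraries, with a log2 fold change of -1.63 (SE 0.483, edgeR adjusted p 0.509). ENSRNOG00000046785 was at 9.75 and 8.33 CPM against 1.26 and 5.91 CPM, with a log2 fold change of -1.34 (SE 0.677). Neither overlapped between groups, and how reads were divided between 2 genes of 1 symbol is uncertain. Col25a1, a neuronal collagen, had 17, 14, 8 and 5 counts and a log2 fold change of -1.37, and Col13a1, a collagen of the neuromuscular junction, had 97, 28, 50 and 50 counts and a log2 fold change of -0.39.

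Of the short chain and anchoring collagens, Col7a1, the anchoring fibril collagen of skin, was at 2.96 and 2.03 CPM in the vehicle libraries and 0.748 and 1.19 CPM in the cisplatin libraries. The groups did not overlap, and the log2 fold change was -1.37 (SE 0.447, edgeR adjusted p 0.509). Col10a1, a collagen of hypertrophic cartilage, had 35, 23, 27 and 20 counts. The collagen VIII genes, which form lattices in vessels and the cornea, overlapped between groups, with log2 fold changes of -0.56 for Col8a1 and -0.47 for Col8a2. Col28a1, a collagen known from Schwann cell basement membranes of peripheral nerve, did not show the pattern of the other abundant chains. Its level was 84.7 and 73.0 CPM in the vehicle libraries and 80.1 and 74.5 CPM in the cisplatin libraries. The cisplatin values lay between the vehicle values, with a log2 fold change of -0.03 (SE 0.181). Col26a1 was similar, with a log2 fold change of -0.10 and libraries 2 higher than libraries 1 in both groups.

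The 10 laminin chains all passed the filter. Their median log2 fold change was -0.57, with 9 of 10 below 0, and 0 reached an unadjusted p under 0.05 with a 1.5-fold change. The groups did not overlap in 3 of the 10 chains, Lamb2, Lamc1 and Lamc3, a share near the 21.2% of all genes. Summed over the class, the level was 281.3 and 405.6 FPKM in the vehicle libraries and 148.5 and 292.3 FPKM in the cisplatin libraries, so cisplatin library 2 lay above vehicle library 1. Without vehicle library 2 the class median was -0.28, and without cisplatin library 1 it was -0.20.

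Lama2, Lamb1 and Lamc1 encode the laminin trimer typical of Schwann cell and muscle basement membranes, and had the highest mean FPKM of the α, β and γ chains. Lama2 was at 279.2 and 464.8 CPM in the vehicle libraries and 153.9 and 330.1 CPM in the cisplatin libraries. Lamb1 was at 646.4 and 938.3 CPM against 289.3 and 687.5 CPM. Lamc1 was at 585.7 and 876.5 CPM against 335.0 and 580.0 CPM. Vehicle library 2 was the highest and cisplatin library 1 the lowest in all 3, and vehicle library 1 and cisplatin library 2 lay side by side. The log2 fold changes were -0.62 (SE 0.439), -0.70 (SE 0.468) and -0.68 (SE 0.375), with edgeR adjusted p values of 0.652, 0.636 and 0.581.

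The bases upstream of Lamb1 and Lamc1 are shown as those of the leading laminin pair. They are the 250 bases before each RefSeq start in GRCr8, on the plus strand of chr6:53562846-53563095 for Lamb1 and on the minus strand of chr13:68051987-68052236 for Lamc1, each read in the direction of its gene. Capitals mark GGGCGG or its reverse complement, with matches that may overlap by a base.
Lamb1: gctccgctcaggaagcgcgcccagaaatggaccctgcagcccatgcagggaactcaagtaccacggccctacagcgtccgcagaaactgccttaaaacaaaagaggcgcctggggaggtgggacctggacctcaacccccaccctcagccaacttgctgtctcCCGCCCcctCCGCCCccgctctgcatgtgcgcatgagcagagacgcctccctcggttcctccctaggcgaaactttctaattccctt
Lamc1: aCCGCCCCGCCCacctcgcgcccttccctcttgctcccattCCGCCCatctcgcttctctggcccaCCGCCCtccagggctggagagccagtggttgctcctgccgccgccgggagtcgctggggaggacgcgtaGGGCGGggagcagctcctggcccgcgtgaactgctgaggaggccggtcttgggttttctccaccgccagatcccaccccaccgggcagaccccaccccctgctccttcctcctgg
Neither stretch holds TATAAA or CCAAT in either direction.

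Lamb2, a β chain of the neuromuscular synapse, kidney and perineurium, was at 192.0 and 247.4 CPM in the vehicle libraries and 90.6 and 162.2 CPM in the cisplatin libraries. Both cisplatin values were below both vehicle values, and the log2 fold change was -0.80 (SE 0.327, edgeR adjusted p 0.519). Lamc3, a rare γ chain, was at 7.55 and 10.1 CPM against 4.76 and 7.48 CPM, which left a very narrow gap between the groups, with a log2 fold change of -0.52 (SE 0.336). Lama4, an α chain of vessels and Schwann cells, was at 161.2 and 213.8 CPM against 123.8 and 183.9 CPM, and Lama5, an α chain of mature vessels and epithelia, at 48.7 and 82.6 CPM against 25.5 and 56.1 CPM. Both overlapped, with log2 fold changes of -0.29 and -0.69. Lamb3, a β chain of epithelial laminin, was rare, with 15, 10, 16 and 5 counts and a log2 fold change of -0.38. Lama1, an α chain of early development, had 19, 54, 24 and 48 counts and a log2 fold change of -0.21.

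The ratios between laminin chains overlapped in every pair that was computed. On the FPKM scale, Lama2 to Lama4 was 1.09 and 1.36 in the vehicle libraries and 0.780 and 1.13 in the cisplatin libraries. Lama4 to Lama5 was 6.30 and 4.93 against 9.25 and 6.24, and Lamb1 to Lamb2 was 3.52 and 3.97 against 3.34 and 4.43. In the 4 collagen pairs within the rule, the groups did not overlap. Col6a3 to Col6a1, with Col6a3 outside the rule by its annotation, overlapped at 0.223 and 0.218 against 0.253 and 0.212. The share of other gene pairs whose ratios do not overlap is not given here. The difference between collagen and laminin pairs was not tested.

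**Figure D4:**
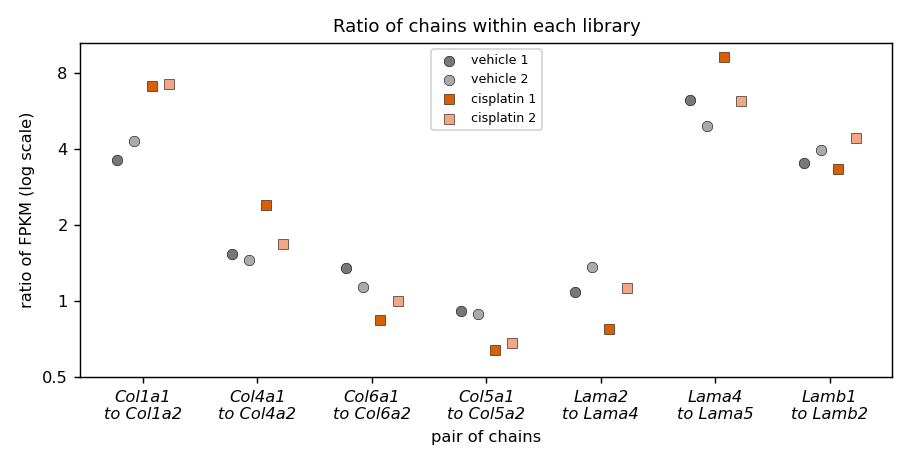
The plot gives, for 7 pairs of chains and each library, the ratio of FPKM values on a log axis, with circles for vehicle and squares for cisplatin. Col1a1 to Col1a2 is 3.63 and 4.32 in vehicle and 7.14 and 7.22 in cisplatin libraries, Col4a1 to Col4a2 is also higher, Col6a1 to Col6a2 and Col5a1 to Col5a2 are lower, and the 3 laminin pairs overlap between groups.

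Fold change followed gene length over the whole table, and collagen and laminin genes are long. Across the 14719 genes tested, which are not independent replicates, Spearman's rho between log2 fold change and deposited gene length was -0.36. The median length was 4938 bases for the chains against 2371 bases for all genes, and 47 of the 51 chains were longer than the median. Within the 51 chains rho was 0.05. When the genes were cut into 10 bins by length, the 2 longest bins held 38 of the chains. All 2943 genes of these bins had a median of -0.23 on the log2 fold change scale, 77.2% of them below 0, and the 38 chains had -0.68. With a correction for length in each library, the median over the chains was -0.43 and 43 of 51 were below 0. After it, 4 chains in place of 9 reached an unadjusted p under 0.05 with a 1.5-fold decrease. The share of all genes by this rule after the correction is not given here. Col1a2 stood at -1.42 after this correction.

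**Figure D5:**
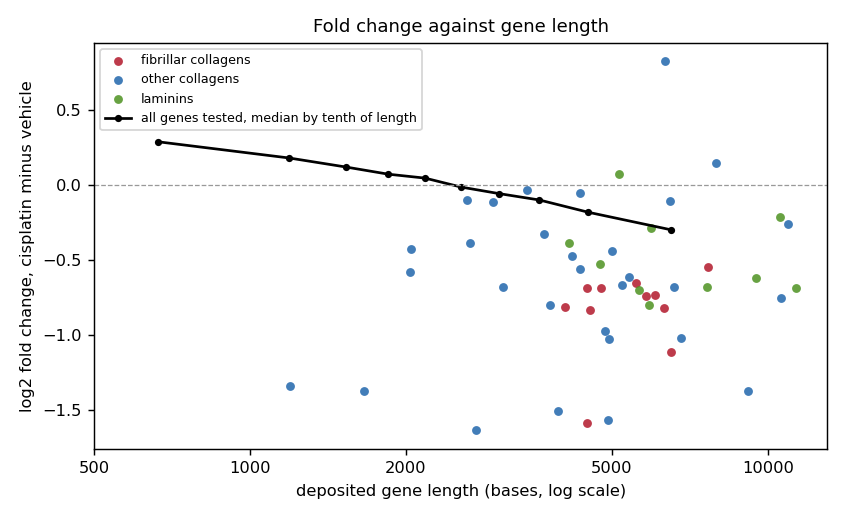
Points are the 51 chains by deposited gene length in bases (log axis) and log2 fold change (cisplatin minus vehicle), and the black line joins the medians of all genes tested in 10 bins of length. The line descends from 0.29 in the shortest bin to -0.30 in the longest, and most chains lie below it.

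Chains that neighbour each other in the genome did not always share a value. Col3a1 and Col5a2, on opposite strands of chromosome 9 and separated by 33294 bases, had log2 fold changes of -0.68 and -0.68. Col6a1 and Col6a2, separated by 97866 bases, had -0.68 and -0.32.

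The genes that process, bind or degrade collagens and laminins were described from 6 lists, in which edgeR called 0 genes at an adjusted p under 0.05. Of 20 tested genes for chain modification and folding, 15 were below 0, with a median log2 fold change of -0.11, and 1 was lower at an unadjusted p under 0.05 with a 1.5-fold change, a share near the 5.32% of all genes. That gene was P3h2, a prolyl hydroxylase of collagen IV, at 2.68 and 1.98 CPM in the vehicle libraries and 0.590 and 1.11 CPM in the cisplatin libraries. Mia3, which loads procollagen into transport carriers, had a log2 fold change of -0.21, and Ppib, a prolyl isomerase of the folding complex, of 0.13. The median of these intracellular partners was nearer to that of all genes than the median of the chains was.

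Of 13 genes for procollagen cleavage and cross-linking, 12 were below 0, with a median of -0.27. Tll2, a procollagen C-proteinase, was at 1.44 and 1.17 CPM against 0.197 and 0.255 CPM, with a log2 fold change of -2.51, and Adamts3, a procollagen N-proteinase, had -0.87. Both were lower at an unadjusted p under 0.05 with a 1.5-fold change, against 5.32% of all genes, while Loxl1, a cross-linking oxidase, had 0.57. Of 12 basement membrane partners, 11 were below 0, with a median of -0.38, and 3 were lower by that unadjusted rule, again against 5.32%. These were Frem2 and Frem1, of the Fraser complex of basement membranes, at -1.93 and -1.64, and Ntn4, a laminin-binding netrin, at -1.12. Frem2 stood at 3.595 and 3.76 CPM in the vehicle libraries and 0.984 and 0.935 CPM in the cisplatin libraries, so its libraries were close within each group.

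Among 13 fibril-associated proteins, 7 were below 0, with a median of -0.06. Ogn, a small leucine-rich proteoglycan, was the 1 gene lower by the unadjusted rule, a share near the 5.32% of all genes, with a log2 fold change of -2.59, at 17.4 and 3.25 CPM against 1.02 and 2.42 CPM, so that most of the difference lay in vehicle library 1. Thbs1, a matricellular protein, had -0.89, and Bgn, a proteoglycan of collagen fibrils, had 0.32. Of 17 receptors, 12 were below 0, with a median of -0.19, and 2 were lower by the unadjusted rule, against 5.32% of all genes: Itga1, the α subunit of a collagen-binding integrin, at -1.43, and Ddr2, a receptor tyrosine kinase for fibrillar collagen, at -1.002. Cd44, a hyaluronan receptor that also binds collagen, had 0.44. Of 13 collagenases, gelatinases and their inhibitors, 7 were below 0, with a median of -0.20 and 0 genes reaching the unadjusted rule. Mmp9, a gelatinase, was at 2.36 and 1.07 CPM against 3.46 and 3.32 CPM, with a log2 fold change of 0.97, and Mmp8, the neutrophil collagenase, had 0.63. Timp2, a metalloproteinase inhibitor, had -0.28.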

How the data were processed

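The authors mapped reads with HISAT2 2.0.5 to Rnor_6.0, assembled transcripts with StringTie 1.3.3b and deposited raw counts and FPKM values per gene, which were used unchanged. The submitters' processing notes also name featureCounts 1.5.0-p3, whose settings are not given in the sources used here. Both a directional and a non-directional library are described, so whether counting used strand is unknown, and overlapping or near-identical genes are uncertain. In each library the deposited FPKM is the count over gene length, divided by 1 constant. Groups came from the sample labels.

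Protein-coding counts were filtered with filterByExpr (14719 of 22293 kept), normalised by TMM (factors 1.10, 0.941, 1.03 and 0.938 for vehicle 1, vehicle 2, cisplatin 1 and cisplatin 2) and compared with edgeR 4.0.16 (glmQLFit, glmQLFTest; R 4.3.3) without a block. P-values were adjusted (Benjamini-Hochberg) over all genes tested. Genes were called at an adjusted p under 0.05 with a fold change of at least 1.5. CPM values are TMM-normalised. DESeq2 1.42.0 and limma 3.58.1, on log2(FPKM + 1) and log2(FPKM + 0.1), a scale that understates the change of low genes, were alternatives, with other scalings and filters, a lowess length offset and leaving out each library. The edgeR script was tested on simulated data. All pairs of libraries differed beyond sampling noise (chi-square per degree of freedom at least 46.2).

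In each class, genes were named for the 4 smallest p-values among chains whose groups did not overlap, the 3 highest mean FPKM values, any adjusted p under 0.05, and the ratios; in each partner list, for the 3 smallest p-values among genes that did not overlap. Other chains are named to account for the other members, except 1 that counts in the totals and is not reported here. The members and lists were chosen with earlier results of these data known. Promoters are from RefSeq (GRCr8).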

Additional observations from a re-analysis of the deposited data

How the results depend on the processing

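The count of chains called, 0 in edgeR, was 1 in DESeq2, 28 with a replicate block and 13 where that block was joined to a length correction, all of them lower after cisplatin. Chains lower at an unadjusted p under 0.05 with a 1.5-fold change numbered 9 in edgeR and 14 in DESeq2. They numbered 30 with the replicate block, 4 with the length correction and 16 with both. The share of all genes by this unadjusted rule is not given for the alternatives, so these counts are not read as a result about the chains. Over all genes, at the adjusted threshold, edgeR called 0 higher and 1 lower and DESeq2 36 and 63. The block called 529 and 1136, and the block joined to the correction 277 and 805. Same-numbered libraries are different rats, and no label says that a number marks a shared litter or day. The numbers come from the sample titles, and the deposited column headers number the cisplatin libraries differently. The numbers were therefore not taken as pairs, although same-numbered deviations correlated across genes (Pearson's r 0.44). The class medians ranged, when each library was left out, from -1.32 to -0.37 for fibrillar collagens, from -1.10 to -0.32 for other collagens and from -1.01 to -0.20 for laminins. Col9a1 ranged from -2.48 to 0.029 and Col6a2 from -0.85 to 0.13 (0.08 without cisplatin library 1). Of the values of named chains and ratios under the alternatives, 472 kept their direction and side of the threshold, 42 passed it and 3 reversed. A lone library left in a group was assumed to vary like the other group. The other scalings, filters and FPKM fits kept the 0 calls. With 2 libraries per group, precision was limited by the spread between libraries, and in chains with few counts by counting error as well.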

Other observations

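Col6a3, which encodes the longest of the common collagen VI chains, lay outside the rule because the deposited annotation lists it as a processed transcript. It had 3400 and 3798 counts in the vehicle libraries and 1845 and 3217 counts in the cisplatin libraries, or 12.1 and 17.0 FPKM against 6.46 and 12.2 FPKM. The groups did not overlap in counts, and overlapped slightly in FPKM. Its ratio to Col6a1 was 0.223 and 0.218 in the vehicle libraries and 0.253 and 0.212 in the cisplatin libraries, which overlapped. Col4a3, Col21a1, Lama3 and Lamb4 were not analysed here.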
